A study of Homo sapiens with 8 samples.

Results

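The genes described here are the protein-coding genes of the short arm of chromosome 8 (8p) in EPC2-hTERT, a line of human esophageal epithelium immortalised with telomerase. A gene was a member when it was annotated on chromosome 8 with a start below 45 Mb (GRCh38), was typed as protein coding and had at least 1200 reads summed over the 8 libraries. Of 58735 genes listed in the count table, 915 lie on the arm, 272 of these are protein coding, and 118 reached the read minimum. TNFRSF10A, TNFRSF10B, TNFRSF10C, TNFRSF10D and FDFT1 were set aside by name, 4 of which had reached the minimum, and 114 members remained. All 114 passed the filter on low counts, among 15135 genes that did. The arm was singled out because its genes stood lower in these same libraries, so the differences between the groups are given as descriptions, and no test of them is read as support.

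All 8 libraries came from total RNA of cells grown in 3D at the air-liquid interface, where they form a layered epithelium. Inserts had pores of 0.4 µm. After 2 days the calcium was set to 1.8 mM, and 5 days later the surface was exposed to air. The control group (CTRL, 4 libraries) is named in the labels only as control cells. The other group (miR-155OE, 4 libraries) is a stable line that received miR-155-5p through a lentivirus, and the labels do not say whether it is 1 clone or a pool. Total counts ranged from 33.4 to 52.7 M per library. Libraries carry the numbers 1 to 4, and nothing states that they are separate cultures, so the spread behind any p-value here is that between these libraries and may be technical. Of 9 squamous epithelial markers 8 exceeded 1 CPM in every library, with KRT5 taking the most reads, while the 4 immune markers together stayed at or below 0.383 CPM (each count scaled to a library of 1 M counts). Of 3 endothelial markers 1 exceeded 1 CPM in every library, and the list, led by VWF, summed to at most 2.35 CPM. Of 4 neural and melanocyte markers 1 exceeded 1 CPM in every library, and the list, led by PMEL, summed to at most 2.37 CPM. Of 5 fibroblast markers COL1A2, COL3A1 and DCN had 0 reads throughout, and the list summed to 92.7 to 145 CPM in CTRL and 98.0 to 221 CPM in miR-155OE, led by COL1A1. The part of these differences in the results was not tested.

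A chromosome arm carries many genes that share no pathway. What they share is a piece of DNA, and as a rule the RNA of most genes follows the number of DNA copies, whereas genes under strong feedback or under control by differentiation signals may depart from it. The short arm of chromosome 8 holds genes for a catalytic and a regulatory subunit of protein phosphatase 2A, lysosomal enzymes, histone-modifying enzymes and growth-control genes, and it is a frequent site of loss in epithelial cancers. DNA copy number was not analysed here, and its part in the values below was not tested. In RNA from a whole culture, fewer cells with a given level and less RNA per cell cannot be told apart.

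In miR-155OE the arm stood lower nearly throughout its length. The median log2 fold change (miR-155OE over CTRL) of the 114 members was −0.36, which is 77.9% of the CTRL level, and 111 members (97.4%) lay below 0, where 51.3% of all genes tested did. In 55 members (48.2%) each of the 4 miR-155OE libraries lay below each of the 4 CTRL libraries, against 5.25% of all genes. SFRP1 was the 1 member with the reverse arrangement, which 6.16% of all genes showed. The middle 50% of the members' log2 fold changes spanned 0.22, beside 0.20 for 9542 protein-coding genes of the other chromosomes with the same read minimum. By this measure the middle of the distribution was displaced with little change in width. Of the 114 members, 93 (81.6%) lay within 0.25 of the median. The outermost values were −1.08 (PPP1R3B) and 1.85 (SFRP1), and the outer spread was not compared with that of other genes.

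The displacement was not equal in the 4 miR-155OE libraries. Measured against each gene's CTRL mean on the log2 CPM scale, the median of the members was −0.51 in miR-155OE replicate 1, −0.20 in replicate 2, −0.57 in replicate 3 and −0.28 in replicate 4, or 70.4%, 87.2%, 67.2% and 82.6% of the CTRL level. In the CTRL libraries 1 to 4 it was 0.00, −0.01, 0.04 and −0.01. Replicate 3 held the lowest miR-155OE value for 62 members and replicate 1 for 38, whereas replicate 2 held the highest for 60 and replicate 4 for 46. The same 2 libraries were thus the lowest for most members, wherever on the arm the gene lay. The 223 long-arm genes with the same read minimum mirrored this order on the other side of 0, with medians of 0.32, 0.17, 0.41 and 0.21 in replicates 1 to 4. Medians of the 22 other chromosomes, from −0.02 on chromosome 4 to 0.02 on chromosome 20, showed no such displacement. In miR-155OE replicates 1 and 3, 102 and 100 members lay below every CTRL library, compared with 72 in replicate 2 and 80 in replicate 4. The share of all genes below every CTRL library was not counted for single libraries, so these counts only describe the members.

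**Figure D1:**
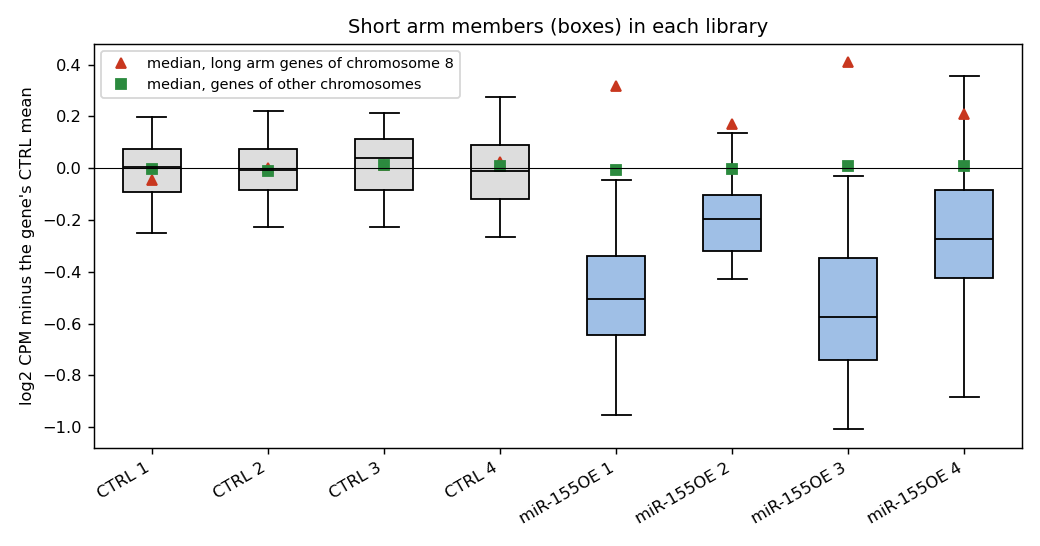
Log2 CPM of the 114 short-arm members minus each gene's CTRL mean (vertical axis) in each of the 8 libraries (horizontal axis). Boxes hold the middle 50% of members with the median as a line and whiskers from the 5th to the 95th percentile, and symbols give the medians of 223 long-arm genes and of 9542 genes of other chromosomes. The short-arm median is lowest in miR-155OE replicates 1 and 3 (−0.51 and −0.57), the libraries in which the long-arm median is highest (0.32 and 0.41).

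By edgeR's quasi-likelihood test on group alone, at a false discovery rate of 0.05 over all genes, 27 members (23.7%) were called lower and 0 higher, where 1.05% and 2.17% of all genes were. An unadjusted p under 0.05 was reached by 87 members, and by 19.3% of all genes. With the replicate number as a block, 74 members were called lower and 2 higher (5.17% and 7.43% of all genes), and DESeq2 called 57 lower and 1 higher (2.95% and 5.13% of all genes). Within numbered pairs, 89 members were lower in 4 of 4 pairs, against 16.9% of all genes. Nothing is read from these counts, since the arm was chosen from this contrast. Limma-voom called 34 lower and 1 higher (1.2% and 2.13% of all genes), edgeR without the filter on low counts 52 and 2 (1.11% and 2.22%), and edgeR with TMM computed without chromosome 8 genes 27 and 0 (1.06% and 2.36%). The number called moved with the libraries used, and each count here is beside the share of all genes called lower and higher. Leaving out CTRL replicate 1 gave 2 calls (0.226% and 0.781%), CTRL replicate 2 gave 5 (0.285% and 1.03%), CTRL replicate 3 gave 2 (0.202% and 0.638%) and CTRL replicate 4 gave 13 (0.614% and 1.99%). Dropping miR-155OE replicate 2 gave 59 (3.39% and 4.85%), replicate 3 gave 1 (0.248% and 0.882%) and replicate 4 gave 18 (0.574% and 1.52%). Without miR-155OE replicate 1 edgeR called 0 (0.162% and 0.648%).

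Along the arm, in windows of 5 Mb, every window lay below 0 (windows with at least 5 members are given). The lowest medians were −0.44 from 25 to 30 Mb (18 members) and −0.42 from 15 to 20 Mb (10 members), followed by −0.40 from 35 to 40 Mb (17 members). Medians of −0.32 were found from 5 to 10 Mb, 20 to 25 Mb and 40 to 45 Mb, with 8, 23 and 16 members. From 30 to 35 Mb the median of 11 members was −0.26. The stretch nearest to 0 ran from 10 to 15 Mb, where 7 members had a median of −0.20 and a range of −0.33 (CTSB) to −0.04 (FAM167A). These 7 are SOX7, PINX1, MTMR9, FAM167A, NEIL2, CTSB and LONRF1, and the groups did not overlap in 2 of them, NEIL2 and CTSB. MSRA also starts in this stretch but fell just short of the read minimum, with 1180 reads. Its log2 fold change of −0.41 (SE 0.18) was lower than that of any of the 7, so the median here depends on the read minimum. Beyond these windows the end of the arm held FBXO25, TDRP, ERICH1 and CLN8, at −0.33, −0.46, −0.56 and −0.28. No steady trend ran along the arm: across the 114 members, which share the same libraries, Pearson's r between start and log2 fold change was 0.08 and Spearman's rho −0.05. These measures do not capture the rise and fall between windows, whose medians ran from −0.44 to −0.20.

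Toward the centromere, the last member of the arm lay above 0. FNTA, the alpha subunit shared by 2 protein prenylating enzymes, had a log2 fold change of −0.29 (SE 0.10), and POMK, a kinase of the O-mannose glycans of dystroglycan, −0.27 (SE 0.15). HGSNAT, the last member, had 0.35 (SE 0.14). The nearest genes past 45 Mb with the same read minimum were SPIDR, CEBPD and PRKDC, with 0.18 (SE 0.06), 0.19 (SE 0.16) and 0.34 (SE 0.15). HGSNAT was on their side of 0 while its neighbours on the arm were not, but it is 1 gene and its groups overlapped. Its order of libraries was not that of the long arm. Against its CTRL mean it stood at 0.21, 0.68, −0.01 and 0.43 in miR-155OE 1 to 4, highest in replicates 2 and 4. The long-arm medians of 0.32, 0.17, 0.41 and 0.21 were highest in replicates 1 and 3. Whether HGSNAT shares a cause with the long-arm genes was not tested.

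**Figure D2:**
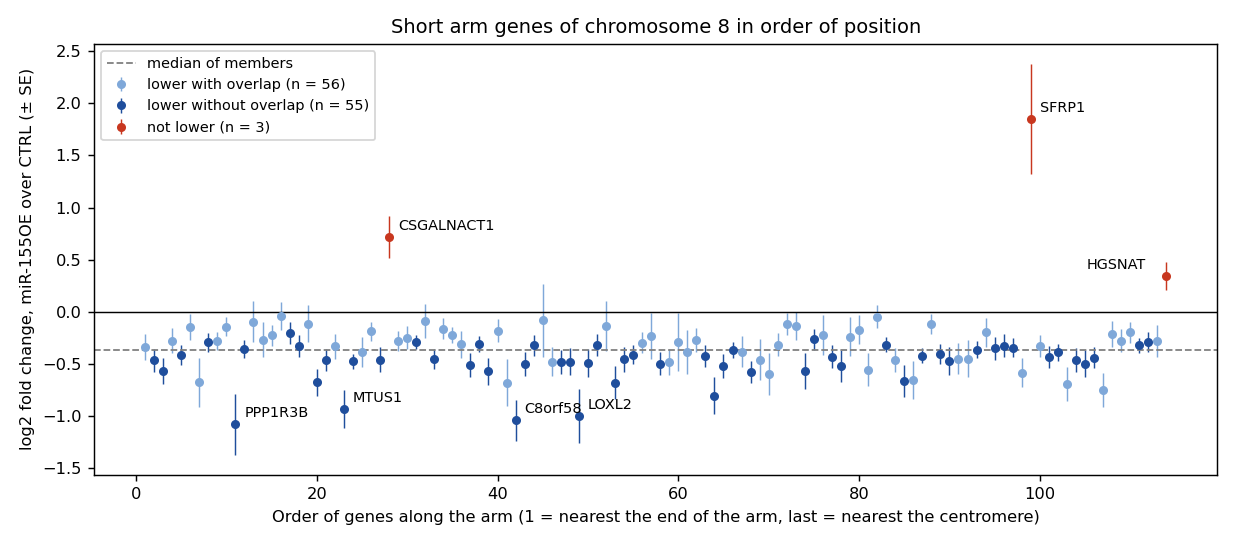
Log2 fold change of miR-155OE over CTRL with its SE (vertical axis) for the 114 members in order of position along the arm (horizontal axis, 1 nearest the end of the arm). Colours mark members lower without overlap of the groups (55), lower with overlap (56) and not lower (3), and the dashed line is the median of −0.36; SFRP1, CSGALNACT1 and HGSNAT stand above 0 among neighbours below it.

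Just 3 members were not lower, where 48.7% of all genes had a log2 fold change of 0 or above. The largest departure was SFRP1, a secreted inhibitor of WNT signalling (ENSG00000104332; chromosome 8, 41261958 to 41309497). Its values were 1.51, 5.04, 0.40 and 1.88 CPM in CTRL 1 to 4 and 7.42, 9.32, 8.86 and 5.58 CPM in miR-155OE 1 to 4. Every miR-155OE library thus lay above every CTRL library, although CTRL 2 came close to miR-155OE 4. The means were 2.21 ± 1.99 CPM and 7.80 ± 1.68 CPM (SD, n = 4 each), with a log2 fold change of 1.85 (SE 0.53), and of 2.66 without CTRL replicate 2 and 1.47 without CTRL replicate 3.

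CSGALNACT1, the enzyme that starts chondroitin sulfate chains (chromosome 8, 19404161 to 19758029), stood at 3.97, 3.94, 4.10 and 7.04 CPM in CTRL 1 to 4. In miR-155OE 1 to 4 it stood at 6.67, 6.80, 8.98 and 8.90 CPM. The groups overlapped through CTRL 4 alone, and miR-155OE was higher in each of the 4 numbered pairs. The log2 fold change was 0.72 (SE 0.21). Its neighbours on either side, SH2D4A (−0.46, SE 0.12), an SH2 domain adaptor, and INTS10 (−0.27, SE 0.10), a subunit of the Integrator complex, were lower.

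HGSNAT, the lysosomal acetyltransferase that takes part in the breakdown of heparan sulfate (chromosome 8, 43140455 to 43202855), stood at 24.1, 22.1, 19.6 and 20.2 CPM in CTRL 1 to 4. In miR-155OE 1 to 4 it stood at 24.8, 34.3, 21.2 and 29.0 CPM. It was higher in 4 of 4 pairs, but the groups overlapped, and the values nearest to CTRL belonged to replicates 1 and 3, the libraries in which the arm was lowest. SFRP1 and CSGALNACT1 were called higher with the replicate block (log2 fold change 2.09, SE 0.43, and 0.75, SE 0.14), whereas HGSNAT was not (0.33, SE 0.10), and none of the 3 was called on group alone.

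A further set of members stayed near the CTRL level without exceeding it. FAM167A, a gene next to BLK whose product is little characterised, had 14.0, 13.2, 13.1 and 12.5 CPM in CTRL 1 to 4 and 14.8, 13.7, 9.21 and 13.8 CPM in miR-155OE 1 to 4. Only miR-155OE 3 was low, and the log2 fold change was −0.04 (SE 0.14), or 0.10 without that library. ZNF703, a zinc finger corepressor, had 53.7, 51.1, 42.8 and 59.3 CPM in CTRL and 46.3, 46.7, 58.8 and 48.6 CPM in miR-155OE, a log2 fold change of −0.04 (SE 0.11), or 0.03 without CTRL replicate 4. Its miR-155OE value was highest in replicate 3, in contrast to the arm as a whole. ASH2L, a core subunit of the histone H3K4 methyltransferase complexes, went from 19.9 ± 1.33 to 18.4 ± 2.18 CPM (SD, n = 4 each; log2 fold change −0.11, SE 0.10). For these 3, for ERI1 (−0.14, SE 0.09), an exonuclease of histone mRNA and small RNAs, for LEPROTL1 (−0.12, SE 0.10), an endospanin of endosomal receptor sorting, and for the 3 members that were not lower, the 95% interval of the log2 fold change lay wholly above the median of the members. That median comes from the same members, and the intervals are not adjusted for their number, so some would miss it by chance alone. LEPROTL1 overlaps MBOAT4 and also DCTN6, which lies on the same strand. Strand could not separate reads in the span shared with DCTN6, so these may belong to either gene. Whether strand was used in counting is not given in the sources used here.

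Other members near 0 had a wide spread on group alone, and for some of them most of it went with the replicate number. EGR3, an immediate early transcription factor, had 25.7, 38.2, 36.4 and 81.6 CPM in CTRL 1 to 4 and 28.3, 40.5, 35.3 and 68.0 CPM in miR-155OE 1 to 4. Its values went with the replicate number in both groups, being highest in replicate 4 and lowest in replicate 1, and the SE of the log2 fold change (−0.08) was 0.35 on group alone and 0.07 with the replicate block (−0.03). SOX7, an SRY-box transcription factor, followed the same arrangement in part, with 58.4, 55.3, 79.0 and 90.7 CPM in CTRL and 51.7, 54.3, 70.4 and 88.8 CPM in miR-155OE. It was lower in 4 of 4 pairs, by −0.10 (SE 0.20 on group alone, SE 0.05 with the block). DMTN, which encodes the actin-bundling protein dematin, and LONRF1, a RING finger protein, had log2 fold changes of −0.09 (SE 0.17) and −0.11 (SE 0.18).

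At the other extreme, the 10 lowest log2 fold changes belonged to PPP1R3B, C8orf58, LOXL2, MTUS1, ZNF395, SLC20A2, AP3M2, PDLIM2, DOCK5 and DEFB1, from −1.08 to −0.68. PPP1R3B, a glycogen-targeting subunit of protein phosphatase 1 (ENSG00000173281; chromosome 8, 9136255 to 9151574), had 17.7, 22.2, 15.8 and 15.3 CPM in CTRL 1 to 4. In miR-155OE 1 to 4 it had 6.97, 14.9, 4.74 and 7.01 CPM. Replicate 2 lay just under the lowest CTRL library, and the other 3 lay far below it. The log2 fold change was −1.08 (SE 0.29), which is 47.4% of the CTRL level, and it was −1.51 without miR-155OE replicate 2.

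LOXL2, a lysyl oxidase that crosslinks collagen, had 17.9, 12.7, 11.1 and 11.1 CPM in CTRL and 6.82, 9.26, 3.52 and 6.84 CPM in miR-155OE (50.1% of the CTRL level by the fitted log2 fold change, SE 0.26). The groups did not overlap. LOXL2 shares part of its span with ENTPD4 on the same strand, a Golgi and lysosomal nucleotidase with 457% of its reads and a log2 fold change of −0.49 (SE 0.13). MTUS1, a microtubule-associated protein, had 44.5, 42.5, 47.4 and 45.4 CPM in CTRL and 19.0, 33.4, 16.4 and 25.8 CPM in miR-155OE (−0.93, SE 0.19). Here the CTRL libraries lay close together and the miR-155OE libraries spread in the order seen for the arm. ZNF395, a zinc finger transcription factor, showed the same arrangement, from 27.8 ± 1.73 to 16.0 ± 4.85 CPM (SD, n = 4 each; −0.80, SE 0.18).

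C8orf58, a gene of unknown function, went from 8.35 ± 1.23 to 4.07 ± 1.18 CPM without overlap (SD, n = 4 each), and its log2 fold change was −1.04 (SE 0.19). It is adjacent to PDLIM2 (−0.68, SE 0.23), a PDZ-LIM protein that directs degradation of the NF-kB subunit p65, and to CCAR2 (−0.50, SE 0.11), an inhibitor of the deacetylase SIRT1. SLC20A2, a phosphate importer, had 203, 187, 190 and 144 CPM in CTRL and 93.1, 149, 92.2 and 97.3 CPM in miR-155OE (−0.75, SE 0.16). CTRL 4 and miR-155OE 2 were nearly level, and without that pair of values the groups were far apart. DEFB1, an antimicrobial beta-defensin of epithelia, departed from the usual order: its lowest miR-155OE value was 5.93 CPM in replicate 2 and its highest 14.2 CPM in replicate 4, beside 12.4 to 18.6 CPM in CTRL. PPP1R3B, C8orf58, LOXL2, MTUS1, ZNF395, SLC20A2 and TUSC3 (−0.67, SE 0.13), a subunit of the oligosaccharyltransferase, had 95% intervals wholly below the median of the members. The intervals of the remaining 99 members spanned it. As these intervals are not adjusted for the number of members, the classes only describe where each gene lay. With the replicate block the intervals were narrower, and 16 members lay above the blocked median of −0.36, 15 below it and 83 across it. All 8 and all 7 of the group-alone fit were among the 16 and the 15, and those added above included SOX7, EGR3, DMTN and HR, and those added below DEFB1, PDLIM2, RAB11FIP1 and ADAM9.

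**Figure D3:**
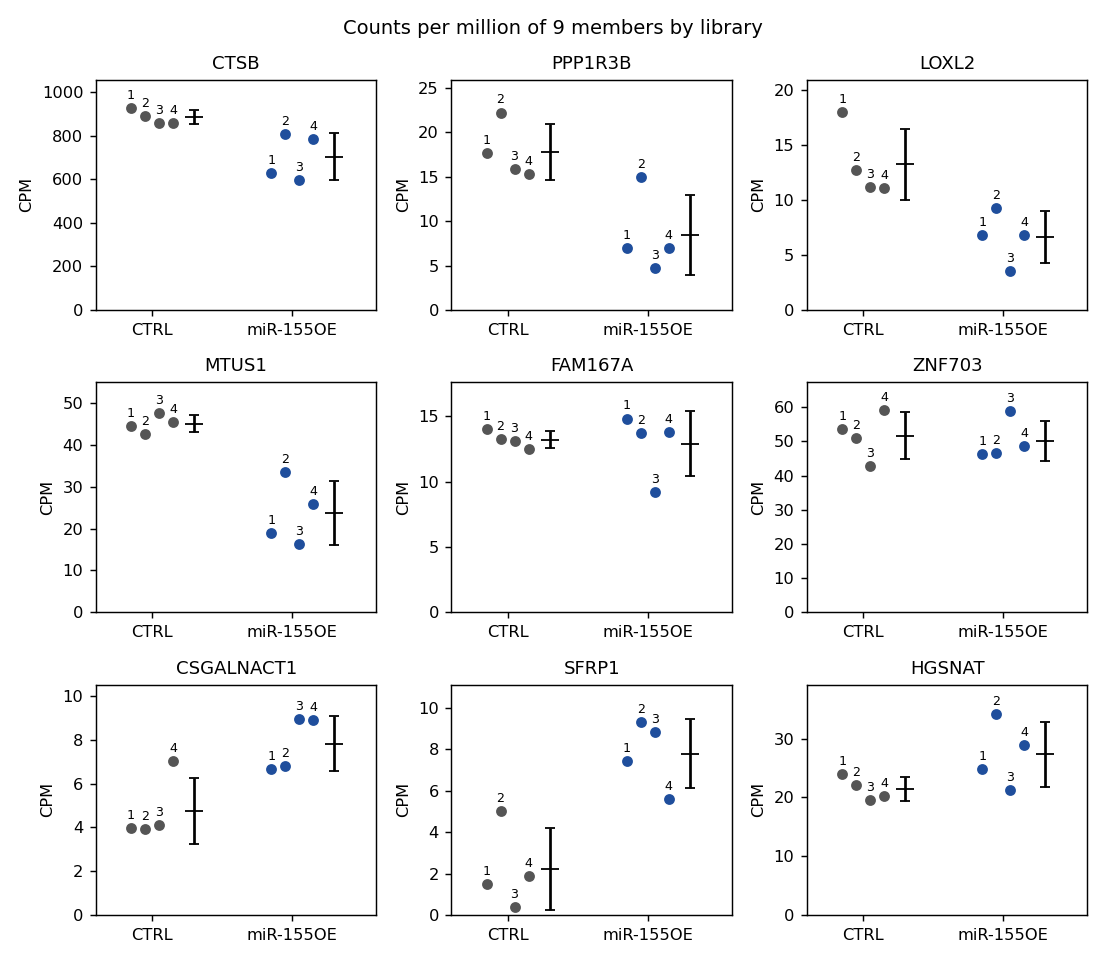
CPM in each library for 9 members (points numbered by replicate), with the group mean and SD beside them; each vertical axis starts at 0. CTSB, PPP1R3B, LOXL2 and MTUS1 are lower in miR-155OE without overlap, FAM167A and ZNF703 overlap CTRL, and CSGALNACT1, SFRP1 and HGSNAT have a higher mean in miR-155OE.

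By function, 93 members fell into 7 groups written from textbook roles, and 21 belonged to none. No group stood on the other side of 0, with medians from −0.45 to −0.31, beside −0.36 over all members and −0.01 over all genes tested. Each of the 3 members that were not lower sat in a different group. In every group, the count lower without overlap stands against 5.25% of all genes and the count called lower against 1.05%, and nothing is read from either.

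Of 16 genes of transcription and chromatin, 9 were lower without overlap, 7 lower with overlap and 0 not lower (median −0.37), where 5.25% of all genes were lower without overlap, and edgeR called 7 lower on group alone (1.05% of all genes). RNA polymerase III was represented by POLR3D, a subunit of the enzyme (−0.51, SE 0.12), and by BRF2, a subunit of its initiation factor TFIIIB (−0.66, SE 0.15). KAT6A, a histone acetyltransferase, had 93.4, 84.3, 95.4 and 98.6 CPM in CTRL and 68.4, 80.1, 64.2 and 71.5 CPM in miR-155OE (−0.39, SE 0.08). NSD3, a histone H3K36 methyltransferase, went from 156 ± 12.7 to 121 ± 9.23 CPM (SD, n = 4 each; −0.36, SE 0.08). These 2 chromatin enzymes sat at the median of the arm, whereas ASH2L stayed near CTRL. HR, a corepressor of the vitamin D receptor known from skin and hair follicle, had 496, 416, 480 and 546 CPM in CTRL and 397, 392, 473 and 473 CPM in miR-155OE. Its groups overlapped, and its log2 fold change was −0.16 (SE 0.10).

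Of 7 genes of RNA processing and translation, 5 were lower without overlap and 2 with overlap (median −0.42). EIF4EBP1, the cap-binding inhibitor 4E-BP1, had 247, 248, 211 and 240 CPM in CTRL and 171, 185, 167 and 186 CPM in miR-155OE (−0.42, SE 0.07). Its miR-155OE values differed less between libraries than those of the arm. CNOT7, a deadenylase subunit of the CCR4-NOT complex, went from 83.5 ± 6.37 to 60.8 ± 9.08 CPM (SD, n = 4 each; −0.46, SE 0.10), and it abuts and slightly overlaps VPS37A (−0.33, SE 0.12). XPO7, a nuclear exportin, had −0.28 (SE 0.07).

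Among 9 genes of DNA repair, replication and mitosis, 6 were lower without overlap and 3 with overlap (median −0.36). WRN, the helicase mutated in Werner syndrome, and POLB, the polymerase of base excision repair, had −0.52 (SE 0.15) and −0.50 (SE 0.13). PCM1, the scaffold of centriolar satellites, had 100.2, 91.0, 107 and 97.8 CPM in CTRL and 68.1, 77.9, 65.5 and 73.7 CPM in miR-155OE (−0.47, SE 0.08). The groups were well apart in it. TNKS, the poly-ADP-ribose polymerase tankyrase (−0.36, SE 0.09), lay at the median, and REEP4, which clears membrane from mitotic chromatin, at −0.22 (SE 0.08).

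Of 11 genes of mitochondria, redox and metabolism, 5 were lower without overlap and 6 with overlap (median −0.31). BNIP3L, a mitophagy receptor, had 422, 340, 382 and 340 CPM in CTRL and 303, 349, 266 and 293 CPM in miR-155OE (−0.29, SE 0.10), with replicate 2 within the CTRL range. GPAT4, a glycerol-3-phosphate acyltransferase, and ERLIN2, an endoplasmic reticulum lipid raft protein, had −0.43 (SE 0.11) and −0.31 (SE 0.07). GSR, glutathione reductase, went from 33.5 ± 7.10 to 28.8 ± 7.95 CPM (SD, n = 4 each; −0.22, SE 0.20), with a spread as wide in CTRL as in miR-155OE. Much of that spread went with the replicate number. GSR was lower in 4 of 4 pairs, and with the replicate block it had −0.24 (SE 0.07) and was not called.

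Of 14 genes of lysosome and vesicle traffic, 4 were lower without overlap, 9 lower with overlap and 1, HGSNAT, not lower (median −0.33). CTSB, the lysosomal protease cathepsin B, took the most reads of any member, with 928, 889, 861 and 860 CPM in CTRL 1 to 4 and 629, 810, 596 and 785 CPM in miR-155OE 1 to 4. Its groups did not overlap, and replicates 2 and 4 lay much nearer to CTRL than replicates 1 and 3 (−0.33, SE 0.11). RAB11FIP1, a RAB11 effector of recycling endosomes, had 445, 461, 434 and 385 CPM in CTRL and 235, 405, 207 and 249 CPM in miR-155OE (−0.65, SE 0.18). Its replicate 2 alone reached the CTRL range, which no miR-155OE library did for CTSB. ASAH1, acid ceramidase, and ATP6V1B2, a subunit of the vacuolar proton pump, had −0.39 (SE 0.14) and −0.25 (SE 0.11), so HGSNAT was the 1 member of this group with a higher mean in miR-155OE.

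Of 23 genes of signalling and cytoskeleton, 13 were lower without overlap, 9 lower with overlap and 1, SFRP1, not lower (median −0.45). A catalytic and a regulatory subunit of protein phosphatase 2A were at nearly the same value: PPP2CB at −0.43 (SE 0.11) and PPP2R2A at −0.41 (SE 0.09). PPP2CB had 131, 134, 145 and 142 CPM in CTRL and 87.2, 108, 91.5 and 125 CPM in miR-155OE. PPP2R2A had 125, 136, 148 and 133 CPM in CTRL and 89.2, 117, 94.7 and 107 CPM in miR-155OE. Neither gene's groups overlapped. IKBKB, the NF-kB pathway kinase IKK-beta, had −0.46 (SE 0.11), and DUSP4, a MAP kinase phosphatase, −0.60 (SE 0.20). FZD3, a WNT receptor, had −0.52 (SE 0.12), on the other side of 0 from the WNT inhibitor SFRP1.

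Of 13 genes of surface, secreted and matrix proteins, 5 were lower without overlap, 7 lower with overlap and 1, CSGALNACT1, not lower (median −0.34). ADAM9, a membrane metalloprotease, had 271, 279, 263 and 225 CPM in CTRL and 163, 229, 135 and 167 CPM in miR-155OE (−0.58, SE 0.14). Its overlap came from CTRL 4 and miR-155OE 2 alone, as for SLC20A2. EXTL3, which starts heparan sulfate chains, went from 130 ± 4.72 to 101 ± 10.1 CPM (SD, n = 4 each; −0.36, SE 0.08), so the enzymes on this arm that start heparan sulfate and chondroitin sulfate chains lay on opposite sides of 0. SARAF, a regulator of store-operated calcium entry, had −0.31 (SE 0.11).

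**Figure D4:**
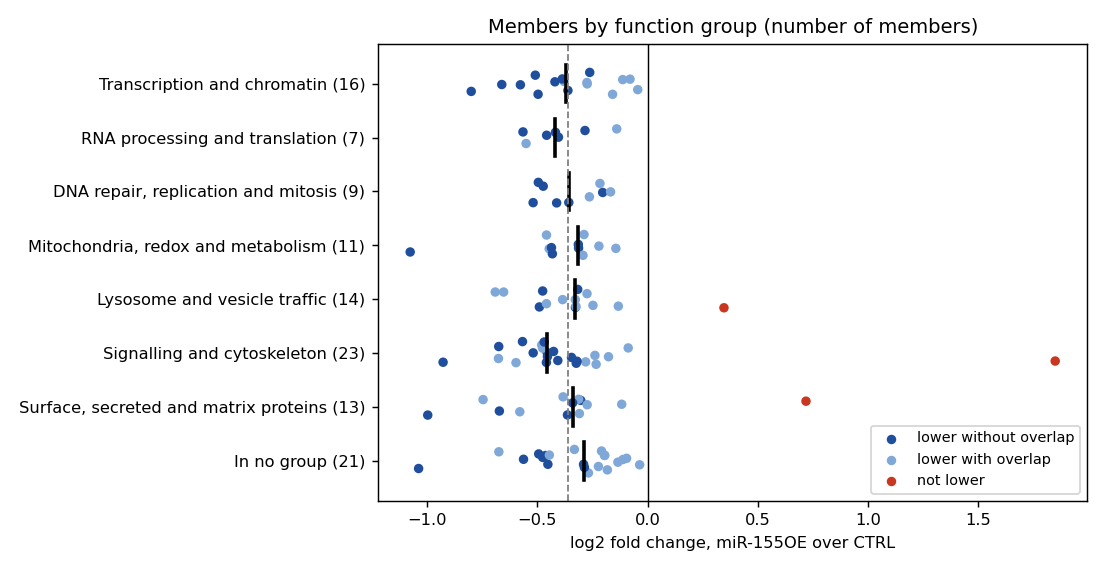
Log2 fold change of miR-155OE over CTRL (horizontal axis) of the 114 members by function group (rows, with the number of members). Points are genes coloured by whether the groups overlap, black bars are group medians from −0.45 to −0.29, and the dashed line is the median over all members; the 3 members above 0 lie in 3 different groups.

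The log2 fold change varied little with read level or gene length. Across the 114 members, Pearson's r of log2 fold change with log2 mean CPM was −0.08 (Spearman's rho 0.02) and with log2 length −0.04 (rho −0.14). These are correlations across genes of the same libraries and describe this set alone. In 4 bins of 28 or 29 members by mean CPM the median log2 fold change was −0.38, −0.41, −0.34 and −0.36 from the lowest bin to the highest. Members lower without overlap numbered 10 of 29, 14 of 28, 18 of 28 and 13 of 29 in these bins (5.25% of all genes). The precision did change: the median SE was 0.15 in the lowest bin and 0.11 in the highest, and 2 of the 3 members that were not lower, SFRP1 and CSGALNACT1, were in the lowest. Members just inside the read minimum were EPHX2 (1216 reads in all, −0.29), soluble epoxide hydrolase, CLU (1245 reads, −0.38), the extracellular chaperone clusterin, and POMK (1397 reads, −0.27). Genes just outside it were MSRA (1180 reads, −0.41), FUT10 (1100 reads, −0.43) and SCARA3 (1031 reads, 0.04).

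**Figure D5:**
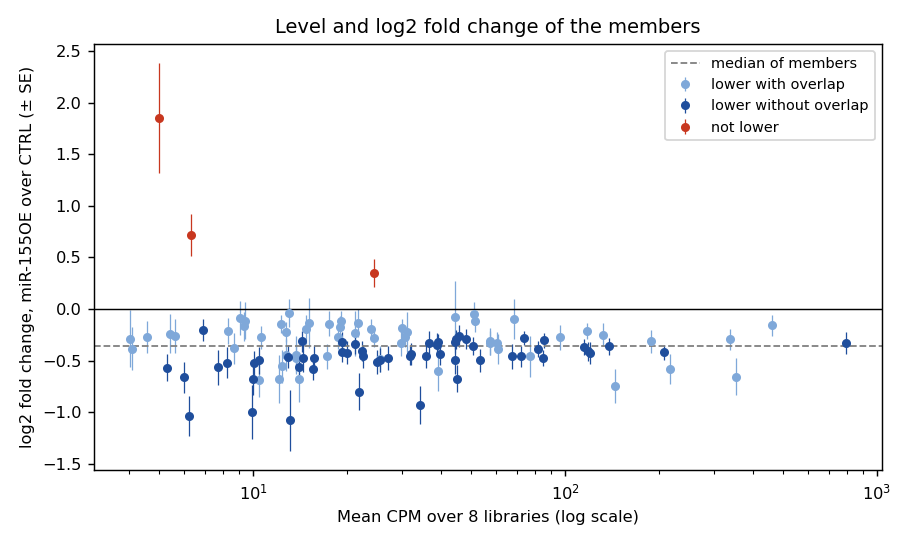
Log2 fold change of miR-155OE over CTRL with its SE (vertical axis) against the mean CPM over 8 libraries (horizontal axis, log scale) for the 114 members, coloured as to overlap of the groups. The members lie around the dashed median of −0.36 at all levels, and the error bars are longest at low CPM.

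Overlapping annotation was common on the arm. Another annotated gene shared part of the span of 80 members, and another protein-coding gene that of 37. The 34 members that overlapped no other gene had a median log2 fold change of −0.33, and 18 of them were lower without overlap of the groups (5.25% of all genes). HGSNAT was among these 34, while the spans of SFRP1 and CSGALNACT1 held only genes with few or 0 reads.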

How the data were processed

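RNA-seq counts of 4 CTRL and 4 miR-155OE libraries were used. Per the submitters' processing notes, the build was GRCh38 and the tools include featureCounts 1.5.0-p3, DESeq2 and HISAT2 2.0.5. Options, strand setting and annotation release are not given in the sources used here. The deposited table holds raw counts per gene, per the file headers, with each gene's position and type. The authors' second table was not used. Counts were fitted in R 4.3.3 with edgeR 4.0.16 (filterByExpr, TMM scaling, quasi-likelihood test on group alone) over all 15135 genes kept, with Benjamini-Hochberg adjustment at 0.05. CPM uses TMM-scaled library sizes, and log2 CPM a prior count of 0.5. The SE was derived from the log2 fold change and its F statistic, and 95% intervals from the SE, so both restate the fit. Alternatives used DESeq2 1.42.0 and limma 3.58.1 (voom).

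Any pair of libraries from the same group differed beyond sampling noise (chi-square over its degrees of freedom 14.4 to 74.8), so none was the same library deposited again. This does not show that they are separate cultures. Over 9960 genes outside chromosome 8, deviations from the group means of same-numbered libraries had correlations of 0.57, 0.50, 0.19 and 0.61 (numbers in order). CTRL replicate 3 went slightly better with miR-155OE replicate 4 (0.20). As all 4 were over 0.1, a cut with no stated basis, the number was used as a pairing in the replicate block and the pair counts. The main fit used group alone, so its calls, SE and intervals leave the pairing out. The choice changed the calls and the interval classes, and both are given under each fit. For number 3 the pairing is uncertain. MIR155HG and MIR155 had 0 reads in all libraries and gave no check of the labels.

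The members, the function groups and the rule for named genes were chosen with earlier results of these data known. Named were the 10 lowest and 10 highest log2 fold changes, members not lower, the 3 members of each group and the 5 overall with the highest mean CPM, the ends of the arm, and genes on either side of the thresholds. Other members given as examples of a role or as neighbours were chosen after their values were seen.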

Additional observations from a re-analysis of the deposited data

Results flagged for a closer look

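In 5 of the 92 groups of 4 libraries examined, 1 library stood apart from the other 3 by more than Dixon's 95% critical value, and chance flags about 1 in 20 groups. CSGALNACT1 was at 7.04 CPM in CTRL replicate 4, where the other CTRL libraries were at 3.94 to 4.10 CPM, and its log2 fold change was 0.97 without that library. AP3M2, a subunit of the AP-3 adaptor, was at 9.86 CPM in CTRL replicate 4, beside 13.9 to 14.0 CPM in the others. SLC20A2 was at 149 CPM in miR-155OE replicate 2 and at 92.2 to 97.3 CPM in the other 3. PDLIM2 was at 16.5 CPM in miR-155OE replicate 2 and at 8.77 to 9.13 CPM in the others, the same library in which the arm as a whole lay nearest to CTRL. FAM167A was at 9.21 CPM in miR-155OE replicate 3, the library in which the arm lay lowest, beside 13.7 to 14.8 CPM in the others.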

How the results depend on the processing

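The median log2 fold change of the members was between −0.42 and −0.31 under every alternative tried, and moved by less than the SD between the miR-155OE libraries. The count called was 27 on group alone (1.05% of all genes called lower and 2.17% higher), 76 with the replicate block (5.17% and 7.43%), 58 with DESeq2 (2.95% and 5.13%), 54 with no filter on low counts (1.11% and 2.22%) and 7 of the 34 members that overlap no other gene, which are fewer genes. Leaving out 1 library gave 0 to 59 calls, and the cause was not tested. TMM without chromosome 8 genes gave 27 (1.06% and 2.36%), limma-voom 35 (1.2% and 2.13%) and a read minimum of 4800 gave 20 of 73. The counts for the 34 and the 73 come from the fit on group alone and stand against its shares. All 27 were also called with the block, DESeq2, limma-voom and TMM without chromosome 8 genes, and 26 of them with no filter. Members lower without overlap numbered 55 (5.25% of all genes), with 18 of the 34. On the same fit they numbered 39 of 73 at 4800 reads. They numbered 54 with DESeq2 and with no filter, 52 with TMM without chromosome 8 genes and 55 with limma-voom. For these other fits the share of all genes was not counted. With 1 library left out they numbered 55 to 72. Groups of fewer libraries separate more easily, and the share of all genes was not counted there, so nothing is read from that range. The number not lower was 3 and was 1 at 4800 reads, 1 among the 34, and 3 to 6 with 1 library left out. SFRP1, CSGALNACT1 and HGSNAT were among them in each fit that held all members, joined by SOX7, EGR3 and ZNF703 without CTRL replicate 4, by SOX7, DMTN and EGR3 without miR-155OE replicate 1, by FAM167A and EGR3 without miR-155OE replicate 3 and by NEFL without miR-155OE replicate 4. No called value of the 45 named members changed sign, and the replicate block changed the sign of none. Depth limits the members of lowest CPM most. The DNA of these cells was not analysed here.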
